A study of Mus musculus with 6 samples.

Results

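The miR-181 family was followed strand by strand in mouse thymus after X-irradiation. Its rows were taken from the deposited table by name, without use of their values, and comprised every one of the 9 strands sought (mmu-miR-181a-5p, mmu-miR-181b-5p, mmu-miR-181c-5p, mmu-miR-181d-5p, mmu-miR-181a-1-3p, mmu-miR-181a-2-3p, mmu-miR-181b-1-3p, mmu-miR-181b-2-3p and mmu-miR-181c-3p) out of 1390 miRNAs. The species prefix is dropped from here on. The 3p strand of Mir181d, miR-181d-3p, was not among the strands sought and had at most 3 counts in any library. Irradiated C57BL mice received 6 Gy of X-rays and their thymus was taken 24 h later (n = 3), and control mice of the same strain were not irradiated (n = 3). All mice were wild type and 5 weeks old, and each library is bulk small RNA from thymus. The series concerns competing RNA networks and the PI3K-AKT pathway in the irradiated thymus.

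A miRNA is cut from a hairpin precursor whose arms give a 5p and a 3p strand. The strand that is mostly loaded into Argonaute is the guide, and its seed (bases 2 to 8) pairs with target mRNAs. In the mouse the family is encoded by paired hairpins at 3 loci, and identical 5p guides can come from more than 1 hairpin, whereas the 3p strands differ between hairpins. In the thymus miR-181a is known for its abundance in immature CD4+CD8+ thymocytes, where it tunes T-cell receptor sensitivity by lowering phosphatases that oppose receptor signalling. The chromosome 1 pair is known as the main source of miR-181a and miR-181b in thymocytes.

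The mature strands are shown because their identity decides which locus a read can be assigned to. They were read from RefSeq (GRCm38.p6), which matched 9 of the 9 strands, and the capitals mark the seed. The 4 guides share 1 seed:
miR-181a-5p: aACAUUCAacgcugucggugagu
miR-181b-5p: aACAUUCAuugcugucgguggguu
miR-181c-5p: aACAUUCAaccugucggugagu
miR-181d-5p: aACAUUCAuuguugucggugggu
The 3p strands followed here fall into 3 seeds:
miR-181a-1-3p: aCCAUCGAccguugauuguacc
miR-181c-3p: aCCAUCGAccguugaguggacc
miR-181a-2-3p: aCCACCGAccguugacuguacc
miR-181b-1-3p: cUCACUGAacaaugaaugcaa
miR-181b-2-3p: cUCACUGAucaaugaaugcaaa

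Counted from the 5′ end of the strand named first, miR-181b-5p differed from miR-181d-5p by C12U alone over the 23 bases they share in length. From miR-181a-5p to miR-181b-5p the changes were A9U, C10U and A21G. miR-181c-5p lacks the G at base 11 of miR-181a-5p and is otherwise identical to it. The 3p strands of the 2 miR-181a hairpins differed by U5C, which lies in the seed, and by U16C. The 3p strands of the 2 miR-181b hairpins differed by A9U over 21 bases. The seed ACAUUCA was carried by 4 miRNAs of the table, all of them miR-181 guides.

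The chromosome 1 hairpins Mir181a-1 (chr1:137966455-137966541) and Mir181b-1 (chr1:137966639-137966718) lie on the plus strand, 97 bases apart, within the non-coding gene Gm4258 and on its strand. The whole of Mir181b-1 and the end of Mir181a-1 overlap an exon of the long non-coding RNA A430106G13Rik. The chromosome 2 hairpins Mir181a-2 (chr2:38852735-38852810) and Mir181b-2 (chr2:38853830-38853918) lie 1019 bases apart inside Nr6a1, an orphan nuclear receptor gene, on the strand opposite to it. The chromosome 8 hairpins Mir181c (chr8:84178873-84178961) and Mir181d (chr8:84178716-84178787) lie on the minus strand, 85 bases apart, within Nanos3, a germ-cell gene, and on its strand outside its annotated exons. Coordinates and genes are those of GENCODE M21 (GRCm38), which may not be the build behind the counts. The 2 miR-181a hairpins are shown, with the mature strands in capitals, because they give the same 5p strand and different 3p strands:
Mir181a-1: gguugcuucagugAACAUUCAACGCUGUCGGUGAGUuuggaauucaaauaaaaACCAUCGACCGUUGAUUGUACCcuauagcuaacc
Mir181a-2: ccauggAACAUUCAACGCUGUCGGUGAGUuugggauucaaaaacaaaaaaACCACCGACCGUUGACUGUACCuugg
A count of miR-181a-5p or miR-181b-5p therefore cannot be divided between chromosomes 1 and 2, and their 3p strands are the locus-specific readout. That readout rests on U5C and U16C for miR-181a and on A9U over 21 bases for miR-181b. It therefore also depends on the authors' read assignment, which is not given in the sources used here. A 3p level is that of a mature strand, and the output of each hairpin was not measured.

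Library totals were 7730641 to 9287017 counts over the 6 libraries, and 519 miRNAs passed the filter on low counts. Levels are CPM, the counts scaled to a fixed library total after correction by the trimmed mean of M values (TMM), so each is a share of the miRNA pool and not an amount per cell. No length term was applied, because 1 read spans a whole mature strand. In bulk thymus, fewer cells of a type and less RNA per cell cannot be told apart. Log2 libraries correlated at 0.959 to 0.979 within the irradiated group, at 0.989 to 0.994 within the control group and at 0.850 to 0.908 between them. Irradiated library 1 stood apart from irradiated libraries 2 and 3 in striated-muscle miRNAs, which summed to 602, 20113 and 13393 CPM in irradiated libraries 1, 2 and 3, against 202 to 480 CPM in the control libraries. Erythroid miRNAs summed to 604, 5027 and 1981 CPM in irradiated libraries 1, 2 and 3, against 480 to 724 CPM in the control libraries. For that reason the comparisons between loci below are also given without irradiated library 1 and with it alone. Values with that library alone carry no test, because a group of 1 has no spread of its own.

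The family's share of the miRNA pool was lower in irradiated thymus. Its 9 strands held 0.433%, 0.259% and 0.432% of all miRNA counts in the irradiated libraries, against 10.3%, 10.9% and 13.8% in the control libraries. The groups lay far apart, and every irradiated library was below every control library. The mean share was 0.375 ± 0.0998% in irradiated and 11.7 ± 1.89% in control thymus (SD, n = 3 each), a 31.1-fold difference, with an exact two-sided permutation p of 0.1, below which groups of 3 cannot go. In the edgeR test at an adjusted p under 0.05, 8 of the 9 strands fell, none rose and 1 did not pass. Of all tested miRNAs 61.3% passed, 33.5% being lower and 27.7% higher in irradiated thymus. The median log2 fold change was -3.56 over the 9 strands and 0.01 over all tested miRNAs. The same 8 strands were lower in every irradiated library than in any control library, as were 36.6% of all tested miRNAs.

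**Figure D1:**
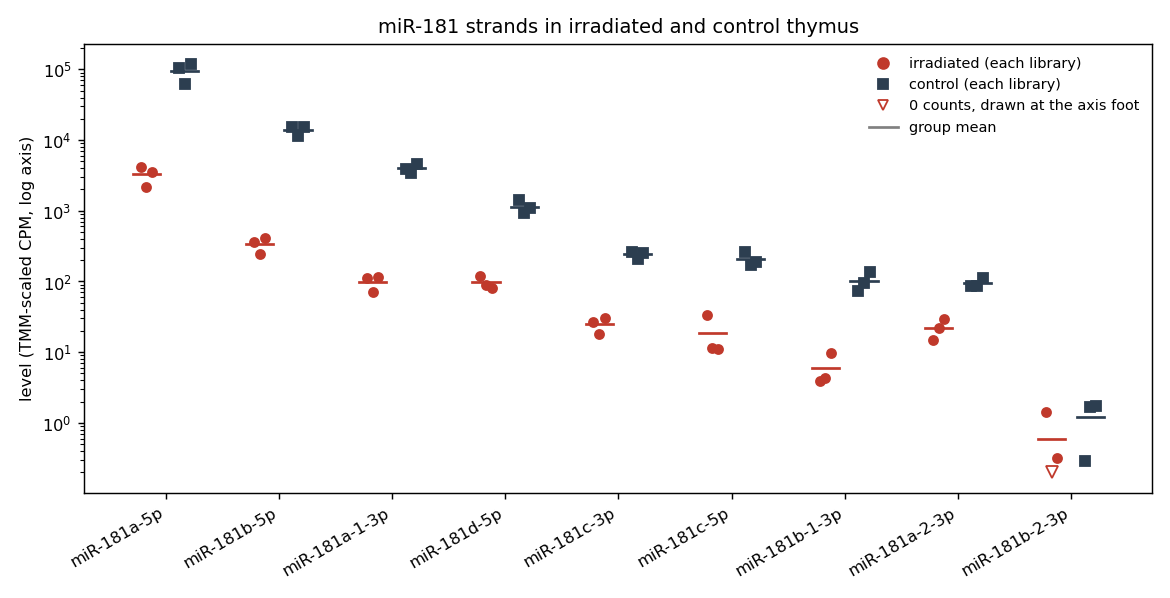
TMM-scaled CPM (log axis) of each miR-181 strand in each library, irradiated circles left of control squares, with a line at each group mean and a library with 0 counts drawn as an open triangle at the axis foot. For 8 strands the 3 irradiated libraries sit below the 3 control libraries, and the groups overlap for miR-181b-2-3p.

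Among the guides, miR-181a-5p was the most abundant strand in both groups. It had 4226, 2178 and 3570 CPM in irradiated libraries, against 103596, 61687 and 117791 CPM in control libraries. Its place among all miRNAs of a library was 25, 38 and 29 in irradiated thymus and 4, 4 and 3 in control thymus. The groups did not overlap, with means of 3325 ± 1046 CPM in irradiated and 94358 ± 29171 CPM in control thymus (SD, n = 3 each). It fell by 4.83 on the log2 scale (SE 0.39, edgeR adjusted p = 1.8e-05), the 10th lowest fold change of the 519.

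miR-181b-5p, the second guide in level, had 357, 247 and 406 CPM in irradiated libraries, against 15411, 11449 and 15408 CPM in control libraries. All irradiated values were below all control values. Its place was 87, 114 and 88 in the irradiated libraries and 13, 13 and 12 in the control libraries. It fell by 5.39 (SE 0.32, edgeR adjusted p = 3.1e-06), the 4th lowest fold change of all and the lowest in the family.

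The guides of the chromosome 8 hairpins were rarer and had smaller fold changes. miR-181d-5p had 121, 89.8 and 80.04 CPM in irradiated libraries, against 1404, 933 and 1089.8 CPM in control libraries, and fell by 3.56 (SE 0.30, edgeR adjusted p = 1.8e-05). miR-181c-5p had 33.4, 11.6 and 11.3 CPM in irradiated libraries, against 258, 169.5 and 188 CPM in control libraries. Irradiated library 1 was the high one of its group, yet still below all controls. miR-181c-5p fell by 3.45 (SE 0.47, edgeR adjusted p = 1.9e-04). Its log2 fold change was -4.19 without irradiated library 1 (past the threshold) and -2.43 with that library alone.

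Of the 3p strands, which are mostly the passengers of these guides, miR-181a-1-3p was the most abundant. This chromosome 1 strand had 110.5, 72.0 and 117 CPM in irradiated libraries, against 3907, 3466 and 4612 CPM in control libraries. The groups were far apart, and it fell by 5.32 (SE 0.32, edgeR adjusted p = 3.1e-06). Its chromosome 1 neighbour miR-181b-1-3p had 3.91, 4.30 and 9.77 CPM in irradiated libraries, against 74.4, 93.6 and 138 CPM in control libraries. The groups did not overlap, and it fell by 4.08 (SE 0.44, edgeR adjusted p = 6.7e-05).

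The chromosome 2 strand miR-181a-2-3p was the least lowered of the strands that passed. It had 15.0, 22.1 and 29.8 CPM in irradiated libraries, against 85.1, 86.4 and 112 CPM in control libraries. The groups again did not overlap, but the means were 22.3 ± 7.42 CPM in irradiated and 94.6 ± 15.2 CPM in control thymus (SD, n = 3 each), a 4.24-fold difference, where miR-181a-1-3p differed 40.0-fold. It fell by 2.08 (SE 0.32, edgeR adjusted p = 4.3e-04) and ranked 101st from the lowest fold change.

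miR-181b-2-3p, the other chromosome 2 strand, was close to the detection limit. It had 11, 0 and 3 counts in irradiated libraries, against 2, 18 and 14 counts in control libraries, where a count of 0 allows up to 3 counts (0.323 to 0.388 CPM, counting error only). The groups overlapped. The log2 fold change was -1.15 (SE 0.91, edgeR adjusted p = 0.289), and no difference was called with these few counts and this spread between libraries. It was -2.83 without irradiated library 1 (edgeR adjusted p = 0.0143), and its sign turned to 0.37 with that library alone. On chromosome 8, miR-181c-3p had 27.1, 18.1 and 30.3 CPM in irradiated libraries, against 259.7, 209 and 256 CPM in control libraries. It fell by 3.26 (SE 0.31, edgeR adjusted p = 3.4e-05), with all irradiated values below all controls.

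**Figure D2:**
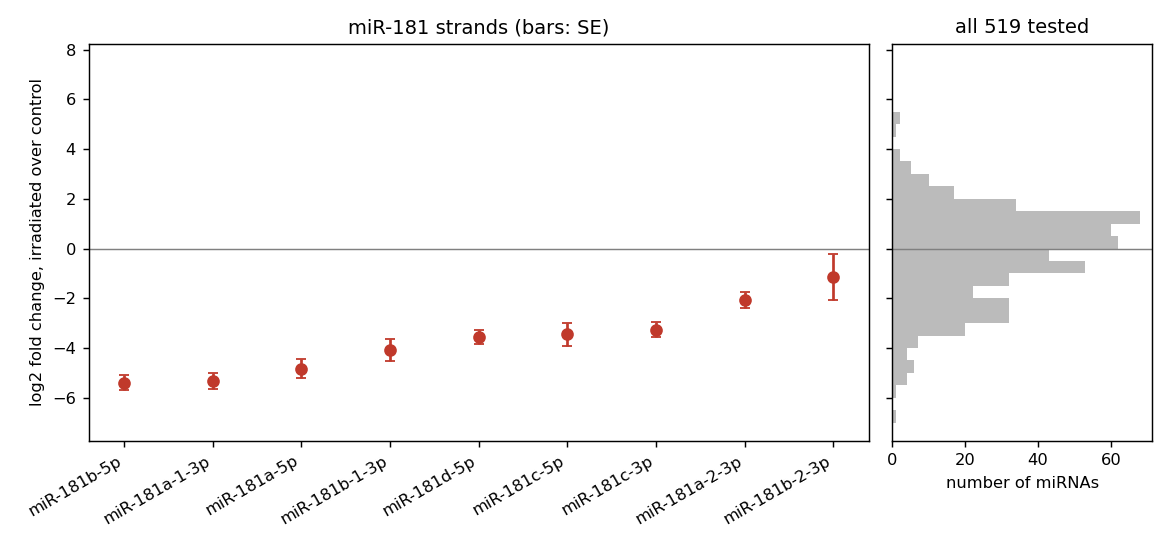
Left, log2 fold change of irradiated over control thymus for each strand with its SE, and right, the number of miRNAs at each log2 fold change among the 519 tested. All 9 strands lie below 0, the chromosome 1 strand miR-181a-1-3p at -5.32 and its chromosome 2 counterpart miR-181a-2-3p at -2.08.

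The order of the strands by mean level was the same in both groups for its first 5 places. In irradiated thymus it ran miR-181a-5p, miR-181b-5p, miR-181a-1-3p, miR-181d-5p, miR-181c-3p, miR-181a-2-3p, miR-181c-5p, miR-181b-1-3p and miR-181b-2-3p. There miR-181a-1-3p overlapped miR-181d-5p, and miR-181a-2-3p overlapped both miR-181c-3p and miR-181c-5p. In control thymus miR-181c-3p and miR-181c-5p overlapped, as did miR-181b-1-3p and miR-181a-2-3p, and the other neighbours were separate. Levels of different strands also carry any unequal capture of their sequences during library preparation, which was not tested.

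Ratios of strands within a library need no scaling between libraries, and 13 pairs were compared on log2(count + 2). Each difference was tested with limma in a fit across all miRNAs relative to the same strand, and 6 of the 13 passed an adjusted p under 0.05. In the fits of those 6 pairs, 75.9% to 98.5% of all miRNAs were called, so a pass is not particular to a pair. The adjustment ran over the miRNAs of a fit and not over the 13 pairs. The intervals and p-values rest mainly on a variance pooled over the fit, whose differences all share the second strand's noise. They can be wider or narrower than a pair's own spread. The smallest exact permutation p for any pair is 0.1. The locus-specific 3p strands of miR-181a gave 7.37, 3.26 and 3.93 counts of miR-181a-1-3p per count of miR-181a-2-3p in irradiated libraries, against 45.9, 40.1 and 41.1 in control libraries. Every irradiated ratio was below every control ratio. The chromosome 1 strand thus formed 88.0%, 76.5% and 79.7% of both 3p strands in irradiated libraries, against 97.9%, 97.6% and 97.6% in control libraries.

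The counts behind these shares were 847 of 962, 603 of 788 and 1103 of 1384 in irradiated libraries, against 27393 of 27990, 37358 of 38289 and 37594 of 38508 in control libraries. The Wilson 95% intervals, which cover counting error only, reached no higher than 89.9% in any irradiated library and no lower than 97.4% in any control library. The log2 ratio was lower in irradiated thymus (difference -3.23, 95% interval -4.15 to -2.30, limma adjusted p = 8.2e-07, exact permutation p = 0.1). Relative to miR-181a-2-3p, 75.9% of miRNAs differed between the groups, so most of the pool shifted against this strand. Irradiated library 1, with the low muscle and erythroid sums, had the highest of the irradiated shares at 88.0%. The difference was -3.57 without that library and -2.54 with it alone against the controls. The part of the muscle and erythroid signal in this result was not tested.

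Other pairs across the loci were less precise. miR-181b-1-3p formed 73.2%, 100% and 96.8% of both miR-181b 3p strands in irradiated libraries, against 99.6%, 98.2% and 98.8% in control libraries. These shares rest on 41, 36 and 95 counts in irradiated libraries, against 524, 1027 and 1135 in control libraries, and they overlapped through the irradiated library with no count of miR-181b-2-3p. Its log2(count + 2) ratio to miR-181b-2-3p was 1.30, 4.25 and 4.23 in irradiated libraries, against 7.03, 5.66 and 6.13 in control libraries. On that scale the groups did not overlap, but they could not have done so. The irradiated libraries had 30, 36 and 92 counts of miR-181b-1-3p. Even 0 counts of miR-181b-2-3p would have kept each of their ratios below every control ratio, so this separation says nothing on miR-181b-2-3p. The difference was -3.02 (95% interval -5.38 to -0.65), which did not pass after adjustment (limma adjusted p = 0.138), with 2.7% of miRNAs called relative to that sparse strand. It was -2.04 without irradiated library 1 and -4.98 with it alone. Within chromosome 1, the ratio of miR-181a-1-3p to miR-181b-1-3p differed by -1.23 (95% interval -2.46 to -0.01, limma adjusted p = 0.0522), where 93.1% of miRNAs were called. That difference was -1.55 without irradiated library 1 (limma adjusted p = 0.0260) and -0.60 with it alone. Within chromosome 2, miR-181a-2-3p relative to miR-181b-2-3p differed by -1.02 (95% interval -3.39 to 1.35, limma adjusted p = 0.584). Irradiated library 1 decided this value, which was -0.018 without that library and -3.03 with it alone.

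**Figure D3:**
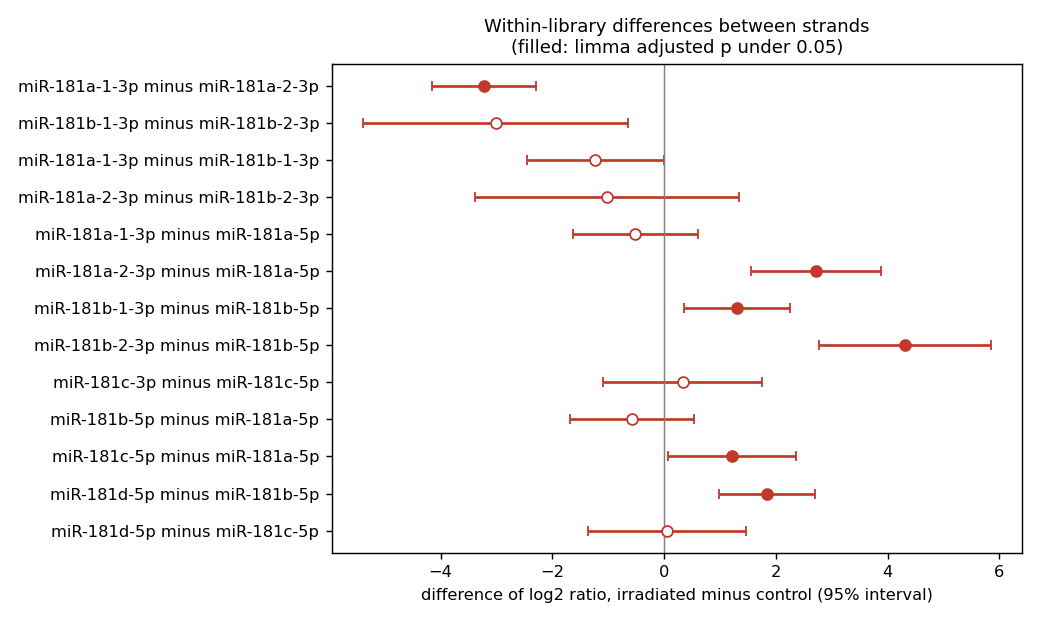
Difference between irradiated and control thymus in the within-library log2 ratio of each of 13 strand pairs, with its 95% interval, filled where the limma adjusted p was under 0.05. The ratio of miR-181a-1-3p to miR-181a-2-3p lies at -3.23, and the intervals of miR-181c-3p to miR-181c-5p and of miR-181d-5p to miR-181c-5p span 0.

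Passenger and guide were also set against each other. Per 100 counts of miR-181a-5p there were 2.61, 3.30 and 3.28 counts of miR-181a-1-3p in irradiated libraries, against 3.77, 5.62 and 3.92 in control libraries. The groups did not overlap, but the log2 difference of -0.51 (95% interval -1.63 to 0.60) did not pass (limma adjusted p = 0.360). Relative to miR-181a-5p, 96.7% of miRNAs differed between the groups. The chromosome 2 strand was higher relative to the shared guide. Per 100 counts of miR-181a-5p there were 0.355, 1.01 and 0.836 counts of miR-181a-2-3p in irradiated libraries, against 0.0822, 0.14003 and 0.0952 in control libraries. All irradiated ratios were higher, with a log2 difference of 2.71 (95% interval 1.55 to 3.87, limma adjusted p = 4.4e-05). The difference was 3.17 without irradiated library 1 and 1.80 with it alone.

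For miR-181b, there were 1.10, 1.74 and 2.40 counts of miR-181b-1-3p per 100 counts of miR-181b-5p in irradiated libraries, against 0.483, 0.818 and 0.892 in control libraries. This ratio was higher in irradiated thymus by 1.30 (95% interval 0.35 to 2.25, limma adjusted p = 0.0125), where 98.5% of miRNAs were called relative to miR-181b-5p. It no longer passed without control library 1 (1.02, limma adjusted p = 0.0623), and the difference was 0.72 with irradiated library 1 alone. The sparse miR-181b-2-3p was higher relative to miR-181b-5p by 4.31 (95% interval 2.77 to 5.85, limma adjusted p = 1.0e-04), a value that rests on at most 11 counts in any irradiated library and at most 18 in any control library. It was 3.62 without irradiated library 1 and 5.70 with it alone. With 2 added to each count, 0 counts of miR-181b-2-3p in every irradiated library would still have given ratios above all controls. Irradiated library 2, which had 0 counts, lay at -10.0 on that log2 scale, against -14.7, -12.6 and -12.9 in control libraries. Though counted among the pairs that passed, this pair therefore says nothing on miR-181b-2-3p itself. On chromosome 8, the ratio of miR-181c-3p to miR-181c-5p was 0.813, 1.57 and 2.69 in irradiated libraries, against 1.01, 1.23 and 1.36 in control libraries. By count, the 3p strand of miR-181c was thus the more abundant in every library but irradiated library 1. The groups overlapped and the difference was 0.33 (95% interval -1.09 to 1.75, limma adjusted p = 0.660), with 83.8% of miRNAs called relative to miR-181c-5p.

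Guides were compared in the same way. miR-181b-5p formed 7.78%, 10.2% and 10.2% of the summed miR-181a-5p and miR-181b-5p counts in irradiated libraries, against 12.95%, 15.7% and 11.6% in control libraries. The groups did not overlap, but the log2 difference of -0.58 (95% interval -1.69 to 0.54) did not pass (limma adjusted p = 0.305). The chromosome 8 guides were higher in irradiated thymus relative to the more abundant guide each was paired with. There were 2.95, 2.75 and 5.08 counts of miR-181b-5p per count of miR-181d-5p in irradiated libraries, against 10.97, 12.3 and 14.1 in control libraries. miR-181d-5p was accordingly higher relative to miR-181b-5p by 1.85 (95% interval 0.99 to 2.71, limma adjusted p = 7.4e-04). It was 1.73 without irradiated library 1 and 2.07 with it alone.

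These guides differ by the single base C12U over their shared length, so read assignment between them depends on the authors' counting, which is not given in the sources used here. miR-181c-5p was higher relative to miR-181a-5p by 1.22 (95% interval 0.08 to 2.37, limma adjusted p = 0.0387). This call was lost without irradiated library 1 (0.91, limma adjusted p = 0.146), without control library 1 (1.30, limma adjusted p = 0.0760) and without control library 3 (0.98, limma adjusted p = 0.171). The difference was 1.84 with irradiated library 1 alone. The neighbours miR-181d-5p and miR-181c-5p differed from each other by 0.05 (95% interval -1.37 to 1.47, limma adjusted p = 0.948), with overlapping groups.

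Within the family, the groups were separate for several minor strands and overlapped for the main one. miR-181a-5p held 86.3%, 82.4% and 83.9% of the family's counts in irradiated libraries, against 82.9%, 79.0% and 84.4% in control libraries. These overlapped (84.2 ± 1.97% in irradiated and 82.1 ± 2.78% in control thymus, SD, n = 3 each, exact permutation p = 0.5). The strands of the chromosome 8 hairpins together held 3.71%, 4.52% and 2.86% in irradiated libraries, against 1.54%, 1.68% and 1.10% in control libraries. All irradiated shares were higher, with an exact permutation p of 0.1. miR-181a-2-3p held 0.614 ± 0.275% in irradiated and 0.0864 ± 0.0219% in control thymus, and miR-181b-5p 8.73 ± 1.25% in irradiated and 12.7 ± 1.84% in control thymus (SD, n = 3 each), both without overlap and with an exact permutation p of 0.1. The 3p strands in sum held 4.01 ± 0.680% of the family in irradiated and 4.02 ± 0.800% in control thymus (SD, n = 3 each, exact permutation p = 1).

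**Figure D4:**
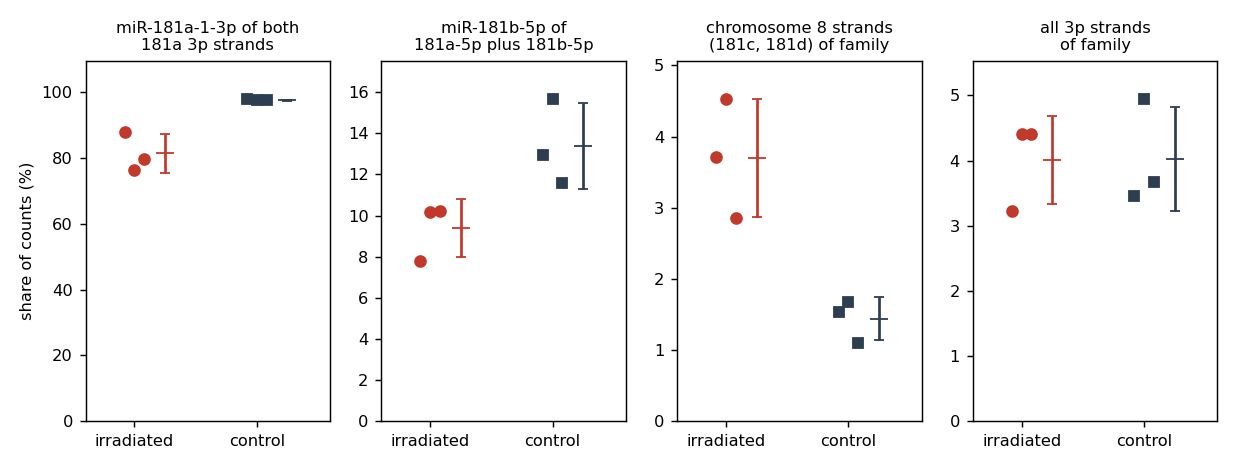
Percent of counts for 4 compositions of the family, 1 point per library, irradiated circles left of control squares, with the mean and SD beside them. miR-181a-1-3p forms 76.5% to 88.0% of both miR-181a 3p strands in irradiated and 97.6% to 97.9% in control libraries, the chromosome 8 strands hold 2.86% to 4.52% in irradiated and 1.10% to 1.68% in control libraries, and the 3p strands overlap between the groups.

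Likeness of profile was measured as the root mean square difference between log2 CPM profiles centred on their own mean over the 6 libraries, among 310 miRNAs averaging at least 10 CPM. It is a description of 6 libraries that fall into 2 groups, so it mostly reads the size of the difference between them. Closest to miR-181a-5p were miR-181a-1-3p (0.334) and miR-181b-5p (0.353), both of the family. They were followed by miR-20b-5p (0.365), miR-363-3p (0.373) and miR-106a-5p (0.426), which are encoded together in the miR-106a-363 cluster, and by miR-130b-5p (0.480) and miR-296-3p (0.513). miR-20b-5p had 52.4, 13.8 and 36.6 CPM in irradiated libraries, against 999.6, 894 and 1095 CPM in control libraries. miR-363-3p had 28.3, 9.55 and 15.8 CPM in irradiated libraries, against 492, 539.5 and 529 CPM in control libraries. Both fell by 4.86 on the log2 scale (edgeR adjusted p = 4.2e-05 for miR-20b-5p and 2.0e-05 for miR-363-3p).

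The remaining strands were less like miR-181a-5p. miR-181b-1-3p was 11th, miR-181d-5p 15th, miR-181c-5p 18th, miR-181c-3p 20th and miR-181a-2-3p 58th of the 310. Closest to miR-181a-2-3p were miR-423-3p (0.128), miR-12191-3p (0.192), miR-1198-5p (0.224), miR-16-1-3p (0.251) and miR-30d-5p (0.308), all outside the family. Its nearest family strand was miR-181c-3p at place 72, and miR-181a-5p was at place 190. miR-423-3p had 70.8, 122 and 151 CPM in irradiated libraries, against 399, 359 and 501 CPM in control libraries, and fell by 1.87 (SE 0.33, edgeR adjusted p = 9.9e-04). Like miR-181a-2-3p it was lowest in library 1 of the irradiated group and highest in library 3.

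**Figure D5:**
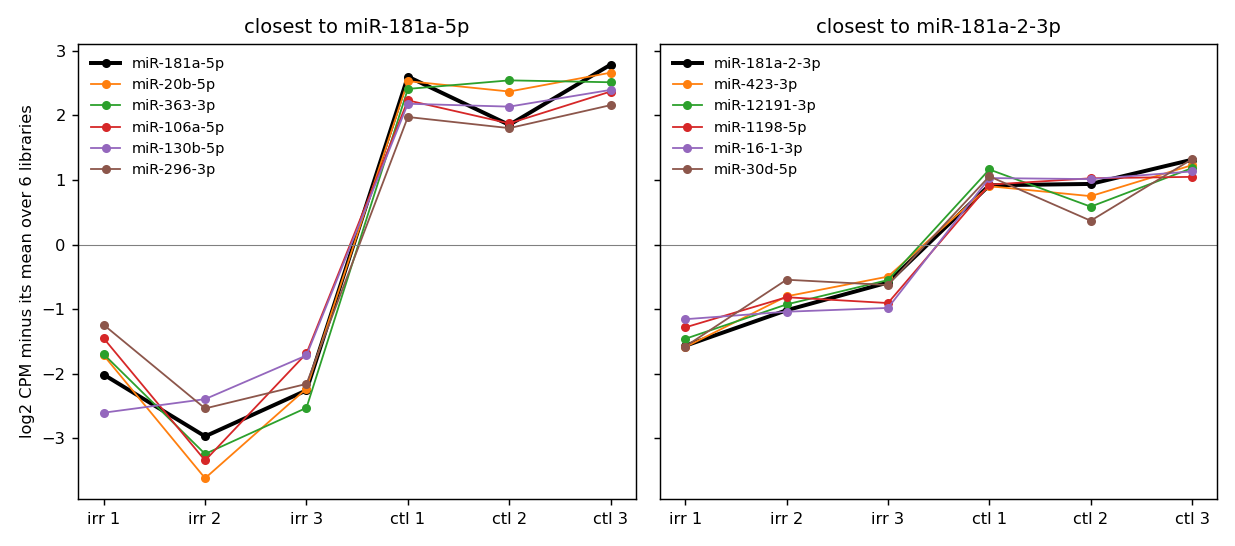
Log2 CPM of each miRNA minus its mean over the 6 libraries, irradiated libraries (irr) left of control libraries (ctl), for miR-181a-5p and for miR-181a-2-3p with their 5 closest miRNAs outside the family. Lines join the values of 1 miRNA and carry no order. miR-181a-5p had a log2 fold change of -4.83 and its 5 closest miRNAs lay at -4.86 to -3.95, while miR-181a-2-3p lay at -2.08 and its closest at -2.12 to -1.82.

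A list of 15 miRNAs chosen as thymocyte and lymphoid companions of miR-181 was counted, all of them tested and none at 0 in any library. It was drawn up with earlier results of these data known. It also holds miRNAs that are not limited to lymphoid cells, among them miR-17-5p, miR-92a-3p, miR-19b-3p, miR-25-3p, miR-15b-5p and miR-16-5p, all of which fell. The list is therefore no measure of lymphoid cells alone. Of the 15 miRNAs, 11 fell, 1 rose and 3 did not pass, where 33.5% of all tested miRNAs were lower and 27.7% higher. They had a median log2 fold change of -2.86, against 0.01 over all tested miRNAs. Their summed level was 9689.8 to 13978.5 CPM in irradiated and 59345 to 75764.5 CPM in control libraries. The 3 of highest mean level were miR-128-3p, miR-25-3p and miR-142a-5p. miR-128-3p averaged 299 ± 96.8 CPM in irradiated and 15619.9 ± 3472 CPM in control thymus (SD, n = 3 each) and fell by 5.70 (SE 0.36, edgeR adjusted p = 4.0e-06). miR-25-3p of the miR-106b-25 cluster fell by 3.33 (edgeR adjusted p = 1.8e-05). miR-142a-5p, which is pan-haematopoietic, fell by 1.39 (edgeR adjusted p = 0.0018). Its other strand on the list, miR-142a-3p, fell by 2.86 (edgeR adjusted p = 1.8e-05). The one that rose was miR-146a-5p, a feedback inhibitor of NF-kappaB signalling (log2 fold change 1.30, edgeR adjusted p = 0.0040), and miR-150-5p, miR-155-5p and miR-342-3p did not pass.

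On the lists for other cell types no miRNA fell, where 27.7% of all tested miRNAs were higher and 33.5% lower. Of 8 vascular and stromal miRNAs 5 rose and 3 did not pass, and they summed to 210279 to 330173 CPM in irradiated and 92002 to 240828 CPM in control libraries. Most of that sum was miR-143-3p, which did not pass (edgeR adjusted p = 0.118). It had 184391 to 295634 CPM in irradiated and 84137 to 232256 CPM in control libraries. Of 7 epithelial miRNAs 4 rose and 3 did not pass, with sums of 20677.5 to 28821 CPM in irradiated and 10191 to 13173 CPM in control libraries. All 3 muscle miRNAs and 2 of 3 erythroid miRNAs rose. Neither of 2 myeloid miRNAs passed, and they summed to 17.0 to 88.4 CPM in irradiated and 23.2 to 44.8 CPM in control libraries. The other strand of the listed miR-223-3p, miR-223-5p, was not on the list. It had 32.2, 54.1 and 74.3 CPM in irradiated libraries, against 9.41, 15.4 and 15.5 CPM in control libraries. miR-223-5p rose by 1.99 (SE 0.37, edgeR adjusted p = 0.0014). No marker on these lists was at 0 in any library. The part of a changed cell make-up in the miR-181 result was not tested.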

How the data were processed

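Small-RNA libraries of thymus from 3 irradiated and 3 control mice were analysed. Per the file headers, the authors deposited whole-number read counts per mature miRNA. No source used here gives the aligner, counting tool or build. The submitters' processing notes name DESeq2 1.10.1. A further 6 count columns that no label describes were not used.

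The test was edgeR 4.0.16 under R 4.3.3 (TMM factors 0.823 to 1.39, filterByExpr, robust quasi-likelihood test, Benjamini-Hochberg over 519 miRNAs). The 519 took 99.97% or more of the counts in every library. Strand ratios used limma 3.58.1 on log2(count + 2), adjusted over all miRNAs of the fit. Single values used exact permutation.

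Members, lists and tests were chosen with earlier results of these data known. The miRNAs named outside the family were the 5 closest to miR-181a-5p and to miR-181a-2-3p and the 3 most abundant of the lymphoid list. The others in that list, miR-143-3p and miR-223-5p were named after their values were seen. Alternatives included DESeq2 1.42.0, limma-voom, other scalings and filters, and leaving out each library. Using irradiated library 1 alone, and a variance prior following the mean level, were chosen after seeing the data.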

Additional observations from a re-analysis of the deposited data

How the results depend on the processing

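Of the 9 strands, 8 kept their direction and passed in all 16 alternatives, of which 1 holds a single irradiated library that is assumed to vary like the controls, and 9 passed without irradiated replicate 1. Over all miRNAs the count of 318 among 519 tested was 210 among the 313 tested with a mean of at least 10 CPM. Leaving out 1 library gave 266 to 374 calls among 537 to 563 tested miRNAs, 8 to 9 among the strands, and 4 to 6 of the 13 strand pairs. The scaling set how calls split: 45.3% were higher with TMM (median of all miRNAs 0.01 on the log2 scale), 50.5% under median-of-ratios scaling (0.12), 38.4% under unscaled totals (-0.13) and 59.7% under upper-quartile scaling (0.44). The family's share of counts differed by -11.3 percentage points, -13.6 without the most abundant miRNA (miR-21a-5p) and -12.0 to -10.2 on leaving out 1 library. The share of miR-181a-5p within the family differed by 2.13 points, 0.588 to 3.28 on leaving out 1 library.

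The log2 change of miR-181b-2-3p turned to 0.37 with irradiated library 1 alone. The difference of miR-181d-5p and miR-181c-5p (0.05) ranged from -0.15 to 0.39 on leaving out 1 library, below 0 without irradiated replicate 2 (-0.15) and 3 (-0.09), and was -0.63 with irradiated library 1 alone. That of miR-181c-3p and miR-181c-5p (0.33) ranged from -0.083 without irradiated replicate 3 to 0.77 without irradiated replicate 1, and was -0.55 with irradiated library 1 alone. The ratio of miR-181a-1-3p to miR-181b-1-3p passed without irradiated replicate 1 (-1.55, limma adjusted p = 0.0260), with the replicate block (limma adjusted p = 0.0074) and with the variance prior following the mean level (limma adjusted p = 0.0375), but was -0.60 with irradiated library 1 alone. The cause of these changes was not tested.

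Replicate numbers are shared between groups. Same-numbered libraries correlated at 0.0994, -0.0244 and 0.230 in their deviations, and differently numbered ones at -0.254 to 0.108. Not every library correlated best with its own number. With 3 libraries per group these values cannot settle whether the numbers pair the samples, and the main test used no pairing. With the replicate block 298 miRNAs passed, 8 strands and 7 of the 13 pairs.

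Groups of 3 limit precision, and an exact test cannot go below 0.1. miR-181b-2-3p is limited by its depth of at most 18 counts per library and by the spread among its irradiated libraries (11, 0 and 3 counts).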
